A study of Caenorhabditis elegans with 24 samples.

Results

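The 24 libraries of RNA from day 3 *C. elegans* were sorted by how much RNA of the major sperm proteins each contained. For every library the RPKM values of all genes named *msp* with a number were added up (RPKM counts the reads of a gene relative to its exon length and to all mapped reads of the library). A library with an msp sum of at least 250 RPKM was called sperm-rich and one below 50 RPKM sperm-poor, which gave 5 sperm-rich libraries and 13 sperm-poor libraries out of 24, with 6 libraries in between left out. The other genes were then compared between both sets. Because measured msp values made the sets, the comparison is a description and carries no test. How the sperm-rich libraries fall over strains and treatments, and what the 6 left-out libraries show, was examined separately.

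Major sperm proteins are small and abundant. They polymerise into the fibres that drive the crawling of the amoeboid nematode sperm and, once released, signal oocytes to mature. A *C. elegans* hermaphrodite makes sperm first, around the last larval stage, and then switches its germ line to oocytes for the rest of its life, storing the sperm in the spermathecae. Sperm-specific genes are transcribed while spermatocytes form, and mature sperm hold little or no active transcription, so mRNA of these genes is in general a mark of developing male germ cells.

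The labels put the libraries in 5 groups. The wild type (wt) was NV48, isolated from a cross of XR1 with GRU102, and the *abl-1* KO was NV50 from the same cross, which carries *abl-1*(ok171). Each genotype is therefore represented by a single strain. Wt animals were left untreated, or were given 100 µM quercetin (a flavonoid) or 100 µM lutein (a carotenoid) from eggs. *abl-1* KO animals were left untreated or given 100 µM quercetin. All of them were fed HT115 bacteria carrying pL4440, with the solvent in the untreated plates, and each pellet held whole nematodes. Every group had 5 libraries except lutein, which had 4.

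Sperm-rich libraries occurred in 3 of the 5 groups. The highest msp sum was 619.9 RPKM in untreated *abl-1* KO replicate 2. Next came *abl-1* KO on quercetin replicate 2 with 442 RPKM and replicate 3 with 372 RPKM, and then wt on quercetin replicate 4 with 337 RPKM. The fifth sperm-rich library was *abl-1* KO on quercetin replicate 5, whose sum of 272 RPKM was the closest to the limit. Thus 4 of the 5 came from the *abl-1* KO strain and 4 of the 5 from quercetin plates, but no labelled group was made up of sperm-rich libraries alone.

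The 6 left-out libraries ranged from 96.7 RPKM to 165 RPKM. The upper end was untreated *abl-1* KO replicate 1 with 165 RPKM, the first library outside the sperm-rich limit. It was followed by wt on quercetin replicate 2 with 139.98 RPKM, wt on lutein replicate 2 with 129 RPKM and untreated wt replicate 2 with 113 RPKM. *abl-1* KO on quercetin replicate 1 had 106 RPKM and wt on quercetin replicate 1 had 96.7 RPKM. All of these libraries carry the replicate numbers 1 and 2.

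The 13 sperm-poor libraries ranged from 4.54 RPKM to 44.2 RPKM, with a median of 18.1 RPKM. In untreated wt they were replicates 1 (39.5 RPKM), 3 (10.6 RPKM), 4 (44.2 RPKM, the highest of the set) and 5 (4.54 RPKM, the lowest of the set). Wt on quercetin had replicates 3 (8.01 RPKM) and 5 (13.4 RPKM) in this set, and wt on lutein had replicates 1 (19.4 RPKM), 3 (22.4 RPKM) and 4 (36.5 RPKM). From the *abl-1* KO strain the set held untreated replicates 3 (11.8 RPKM), 4 (23.6 RPKM) and 5 (12.6 RPKM) and quercetin replicate 4 (18.1 RPKM). By strain, 9 of the 14 wt libraries and 4 of the 10 *abl-1* KO libraries were sperm-poor. None of the 5 libraries numbered replicate 2 was among them: 2 were sperm-rich and 3 were left out.

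**Figure D1:**
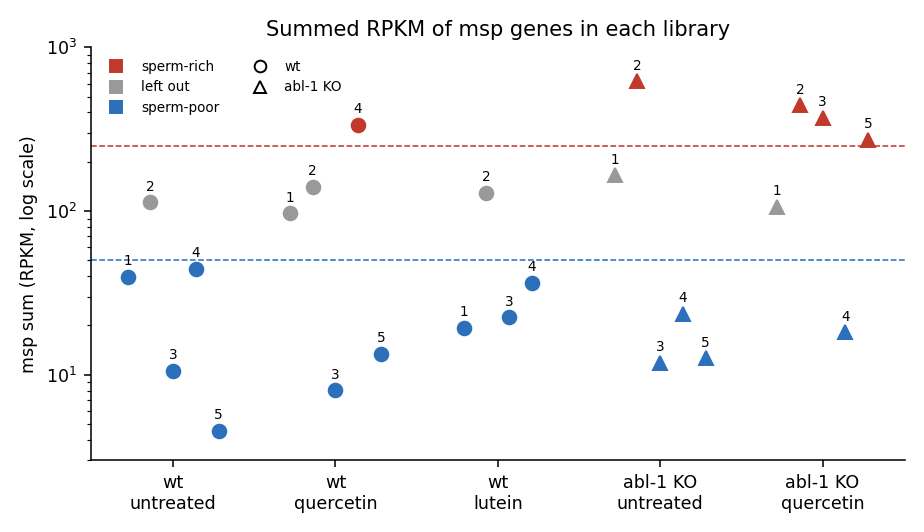
Summed RPKM of the msp genes in each of the 24 libraries, on a log scale, by labelled group. Each point is 1 library with its replicate number, circles are wt and triangles *abl-1* KO, and the dashed lines mark the limits of 250 RPKM and 50 RPKM. Sperm-rich libraries (red) lie between 272 and 619.9 RPKM and sperm-poor libraries (blue) between 4.54 and 44.2 RPKM, and 3 of the 5 groups hold both.

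Mean msp sums were 409 ± 133 RPKM (SD, n = 5) in the sperm-rich set and 20.4 ± 12.6 RPKM (SD, n = 13) in the sperm-poor set, a ratio of 20.1. Even in the richest library the msp genes took only 0.0838% of the summed RPKM of all genes, and in the poorest 0.000634%. In bulk RNA, fewer spermatocytes in the pellet and less msp RNA in each of them cannot be told apart.

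The msp sum was also compared between the groups as labelled, which the choice of the sets does not affect. On the log2 scale it was higher by 1.14 in wt on quercetin than in untreated wt (two-sided exact permutation p = 0.413), by 0.61 in wt on lutein than in untreated wt (p = 0.595, exact) and by 1.05 in untreated *abl-1* KO than in untreated wt (p = 0.476, exact). *abl-1* KO on quercetin was higher by 1.58 than untreated *abl-1* KO (p = 0.325, exact permutation) and by 1.49 than wt on quercetin (p = 0.254, exact permutation). Adjusted over these 5 comparisons every p was 0.595, while the smallest p that the design allows is 0.00794. None of the differences was larger than the spread between the libraries of a group. Single libraries carried much of these values. Without untreated *abl-1* KO replicate 2 the difference of untreated *abl-1* KO from wt was 0.15, and without untreated wt replicate 2 it was 1.6. Without wt on quercetin replicate 4 the quercetin difference in wt was 0.48, and without wt on quercetin replicate 3 it was 1.83. In *abl-1* KO the quercetin difference was 1.05 without untreated replicate 3 and 2.48 without untreated replicate 2. The difference of *abl-1* KO on quercetin from wt on quercetin was 0.80 without wt on quercetin replicate 3 and 2.26 without *abl-1* KO on quercetin replicate 4. The quercetin effect differed by 0.44 between both strains (exact permutation p = 0.821).

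RPKM values carry no read depth. Judged by the step that 1 read makes in low genes, depth was 27.3 M to 45 M mapped reads per library, with the sets overlapping: 27.5 M to 37.8 M in sperm-rich and 27.3 M to 41.5 M in sperm-poor libraries. The share of genes listed at 0 was 15.1% to 15.8% in sperm-rich libraries, below the 17.2% to 20.3% of sperm-poor libraries, and the part of this in the results was not tested. *abl-1* itself, the gene mutated in NV50, stood at 1.71 to 2.14 RPKM in the 10 *abl-1* KO libraries and at 6.85 to 7.77 RPKM in the 14 wt libraries. Every library thus matched the *abl-1* genotype of its label, which does not tell apart strains that share this genotype.

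Of the 20191 genes in the table, 31 are msp genes and were set aside. A gene was compared when it reached 0.5 RPKM in at least 4 of the 24 libraries, which held for 12743 other genes. Differences were taken as the mean log2(RPKM + 0.5) of the sperm-rich set minus that of the sperm-poor set. The added 0.5 keeps genes at 0 on the scale and understates the change of low genes. A gene was called higher when all 5 sperm-rich libraries lay above all 13 sperm-poor libraries and the mean difference was at least 1 (2-fold).

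By this rule 225 genes, or 1.77% of those compared, were higher in the sperm-rich libraries and 0 were lower. Without the 2-fold demand, 279 genes (2.19%) had every sperm-rich library above every sperm-poor one and 7 (0.0549%) had the opposite order. With overlap allowed, 317 genes (2.49%) were at least 2-fold higher and 9 (0.0706%) at least 2-fold lower on average. The median difference of the 225 genes was 1.63, from 1.00 to 4.16, beside a median of 0.02 over all 12743 genes. They were transcripts of low abundance: the median of their mean levels was 1.53 RPKM in sperm-rich and 0.118 RPKM in sperm-poor libraries, and the highest mean was 22.8 RPKM. The mean RPKM in the sperm-rich set was 16.1 times that in the sperm-poor set for the median gene (quartiles 10.6 and 20.7), near the ratio of 20.1 for the msp sum itself. Only 98 of the 225 would have passed the expression filter without the sperm-rich libraries, and the other 127 passed through them alone, so for those a difference was built in.

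Within the sperm-rich set most of the 225 genes had their extremes in the libraries with the largest and smallest msp sum. For 195 of them the highest of the 5 values was in untreated *abl-1* KO replicate 2, the library with the largest msp sum. The lowest was in *abl-1* KO on quercetin replicate 5, the library with the smallest, for 144 of them. How often these libraries held the extremes over all 12743 genes is not given here, so the counts cannot be set against that share. By name, 156 of the 225 carry sequence names only, and 35 bear a symbol of the *spe*, *ssp*, *ssq*, *sss*, *msd*, *nspd*, *smz*, *spch* or *gsp* families, which were named from sperm or sperm proteins or are known from them.

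The largest difference was that of *Y59E9AR.7* on chromosome IV, known here by its sequence name only. It stood at 34.3 RPKM in untreated *abl-1* KO replicate 2, at 26.6, 18.7 and 17.7 RPKM in *abl-1* KO on quercetin replicates 2, 3 and 5, and at 16.6 RPKM in wt on quercetin replicate 4. In sperm-poor libraries the lowest value was 0, the median 0.663 and the highest 2.78 RPKM. The sets were well apart, with means of 22.8 ± 7.56 RPKM (SD, n = 5) and 1.07 ± 1.07 RPKM (SD, n = 13) and a log2 difference of 4.16. The left-out libraries fell between them, at 5.41 to 8.75 RPKM.

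Proteins with a major sperm protein domain form one group among the leading genes. *msd-1*, whose product holds little more than that domain, read 17.4 RPKM in untreated *abl-1* KO replicate 2, 16.8, 10.4 and 8.51 RPKM in *abl-1* KO on quercetin replicates 2, 3 and 5, and 9.63 RPKM in wt on quercetin replicate 4. Sperm-poor libraries had a lowest value of 0, a median of 0.477 and a highest of 1.55 RPKM. No sperm-poor library therefore came near the lowest sperm-rich one, and the log2 difference was 3.69. All 3 *msd* genes compared were higher, *msd-2* by 3.64 and *msd-4* by 3.4. Related small proteins of the sperm-specific class P followed them, with 9 of 10 *ssp* genes higher and *ssp-37* as the exception. Of these 9 at least *ssp-31* passed the expression filter only through the sperm-rich libraries, so its difference was built in. *ssp-9* was at 18.2 RPKM in untreated *abl-1* KO replicate 2, at 12.0, 12.0 and 9.88 RPKM in *abl-1* KO on quercetin replicates 2, 3 and 5, and at 13.5 RPKM in wt on quercetin replicate 4, against 0 to 1.78 RPKM (median 0.752) in the sperm-poor set. Here wt on quercetin replicate 4 had the second place, above *abl-1* KO libraries with a larger msp sum.

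Another group, the small nematode-specific peptides of the *nspd* family, was higher in all 9 members compared, by 1.78 to 3.75. *nspd-2* (WBcel235 chromosome IV, 9844060 to 9844272, plus strand) had 21.5 RPKM in untreated *abl-1* KO replicate 2, 14.5, 11.5 and 8.06 RPKM in *abl-1* KO on quercetin replicates 2, 3 and 5, and 10.7 RPKM in wt on quercetin replicate 4. The sperm-poor libraries lay between 0 and 1.42 RPKM with a median of 0.425. All 4 *ssq* genes of the sperm-specific class Q were higher too, by 2.17 to 3.3, as were *sss-1* (3.04), 3 of 3 *nspa* genes, 5 of 6 *msrp* genes and both *gipc* genes. Of the *msrp* genes at least *msrp-5* passed the expression filter only through the sperm-rich libraries, so its difference was built in. *ssq-2* was at 6.01 to 11.3 RPKM in the 5 sperm-rich libraries and at 0.0697 to 0.911 RPKM in the 13 sperm-poor ones. Members of *msp*, *msd*, *ssp*, *ssq* and *nspd* are near copies of each other, and how reads that map to several copies were shared out is not given in the sources used here, so the value of a single member is less certain than that of its family.

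Sperm chromatin and sperm RNA pathways were represented as well. The 3 *spch* genes, whose products package sperm DNA, were higher by 2.01 to 3.21. For *spch-1* the sperm-rich libraries read 3.64 to 7.81 RPKM and the sperm-poor libraries 0 to 0.892 RPKM. *htas-1*, a histone H2A variant of sperm, read 3.06 RPKM in untreated *abl-1* KO replicate 2, 1.47, 1.34 and 1.36 RPKM in *abl-1* KO on quercetin replicates 2, 3 and 5, and 1.25 RPKM in wt on quercetin replicate 4, with 0 to 0.26 RPKM (median 0.0647) in the sperm-poor set. A single library was thus more than 2-fold above the other 4, which lay close together. The log2 difference of *htas-1* was 1.85, and the lowest sperm-rich value corresponds to an estimated 19.8 reads. The histone H3 variant *his-70* differed by 1.08, with an estimated 4.56 reads in the lowest sperm-rich library. *htas-1* and *his-70* passed the expression filter only through the sperm-rich libraries, so a difference was built in for them.

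*alg-3*, an Argonaute that acts with small RNAs during spermatogenesis, was just past the 2-fold limit. Its values were 0.944 RPKM in untreated *abl-1* KO replicate 2, 0.601, 0.659 and 0.456 RPKM in *abl-1* KO on quercetin replicates 2, 3 and 5, and 0.615 RPKM in wt on quercetin replicate 4, against 0.00956 to 0.11 RPKM (median 0.0458) in sperm-poor libraries. The log2 difference was 1.05 although the ratio of the mean RPKM values was 12.7, which shows how far the added 0.5 shrinks the difference of a gene at this level. *alg-3* too passed the expression filter only through the sperm-rich libraries.

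Some phosphatase and kinase genes were also among the 225. *gsp-3* and *gsp-4* encode sperm-specific PP1 phosphatases, and their relatives *gsp-1* and *gsp-2* act in many cells. Of these 4 *gsp* genes, all of them compared, both sperm genes were higher and both general ones were not. *gsp-3* had 4.47 RPKM in untreated *abl-1* KO replicate 2, 2.41, 3.16 and 2.1 RPKM in *abl-1* KO on quercetin replicates 2, 3 and 5, and 2.17 RPKM in wt on quercetin replicate 4. In the sperm-poor set its lowest value was 0.0256, its median 0.184 and its highest 0.464 RPKM, and the log2 difference was 2.28. *gsp-4* differed by 1.96. Of the kinases, picked after their values were seen, *gska-3*, related to glycogen synthase kinase 3, was at 0.663 to 1.3 RPKM against 0.0672 to 0.312 RPKM (log2 difference 1.07), and *ttbk-2*, of the tau tubulin kinase family, was at 0.631 to 1.07 RPKM against 0 to 0.16 RPKM (log2 difference 1.27). The latter read 0 in 8 of the 13 sperm-poor libraries. *gska-3* and *ttbk-2* passed the expression filter only through the sperm-rich libraries, so a difference was built in for them. Of the 3 *ttbk* genes compared *ttbk-2* and *ttbk-4* were higher and *ttbk-7* was not.

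Fewer *spe* genes, named for mutants with defective spermatogenesis, moved with the sets. Of 25 listed, 10 were compared and 2 were higher, *spe-11* and *spe-46*. *spe-11*, a factor that sperm bring into the egg, had 1.68 RPKM in untreated *abl-1* KO replicate 2, 1.32, 1.15 and 0.914 RPKM in *abl-1* KO on quercetin replicates 2, 3 and 5, and 1.14 RPKM in wt on quercetin replicate 4. Sperm-poor libraries had 0 to 0.194 RPKM with a median of 0.0351, and the log2 difference was 1.61. *spe-46* was at 0.729 to 1.57 RPKM against 0.058 to 0.316 RPKM. For *spe-4*, of the presenilin family, the sets were apart, at 0.362 to 0.564 RPKM against 0.059 to 0.341 RPKM, but the difference of 0.64 stayed under 2-fold. *spe-11*, *spe-46* and *spe-4* passed the expression filter only through the sperm-rich libraries, so a difference was built in for them.

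The sets overlapped for *spe-44* and *spe-6*. *spe-44*, a transcription regulator needed to start the spermatogenesis programme, was at 10.7 to 13.4 RPKM in sperm-rich and 11.5 to 14.5 RPKM in sperm-poor libraries, a log2 difference of -0.07 with full overlap. The casein kinase *spe-6* overlapped likewise, at 2.58 to 3.44 RPKM against 2.14 to 3.52 RPKM. *spe-9* and *spe-38*, which act in sperm and egg fusion, and *fer-1*, a dysferlin relative needed for sperm membrane fusion and listed with them, did not reach the filter and were not compared. Their means in the sperm-rich set were 0.0625, 0.039 and 0.174 RPKM and in the sperm-poor set 0.0201, 0.0338 and 0.0666 RPKM. The ratios were 3.11 for *spe-9*, 1.15 for *spe-38* and 2.62 for *fer-1*. The sets overlapped for *spe-9* and *spe-38*, with 7 and 6 sperm-poor libraries above the lowest sperm-rich value. For *spe-9* that lowest value corresponds to an estimated 0.988 reads. For *fer-1* every sperm-rich library lay above every sperm-poor one, but the closest pair differed little, at 0.0935 RPKM each when rounded.

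Over the whole list of other sperm genes (spermatogenesis genes outside the msp family), 67 are in the table and 42 were compared. Of these, 35 were higher, or 83.3%, against 1.77% over all genes, with a median difference of 2.07. Only 34 of the 42 would have passed the expression filter without the sperm-rich libraries, and 28 of these were higher. The other 7 genes called higher passed through the sperm-rich libraries alone. The list was drawn up with earlier results on these libraries known, and it belongs to the same programme as the genes that made the sets, so the count describes how complete the pattern is. The 7 that were not higher were *cpb-1*, *spe-15*, *spe-4*, *spe-41*, *spe-44*, *spe-6* and *ssp-37*. *spe-5*, *spe-39* and *spe-48* were also compared and not higher, but are not on the list, so the 83.3% holds for the list only. The summed RPKM of the list was 203 to 356 in sperm-rich, 106 to 144 in left-out and 68.6 to 89.7 in sperm-poor libraries, without overlap.

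**Figure D2:**
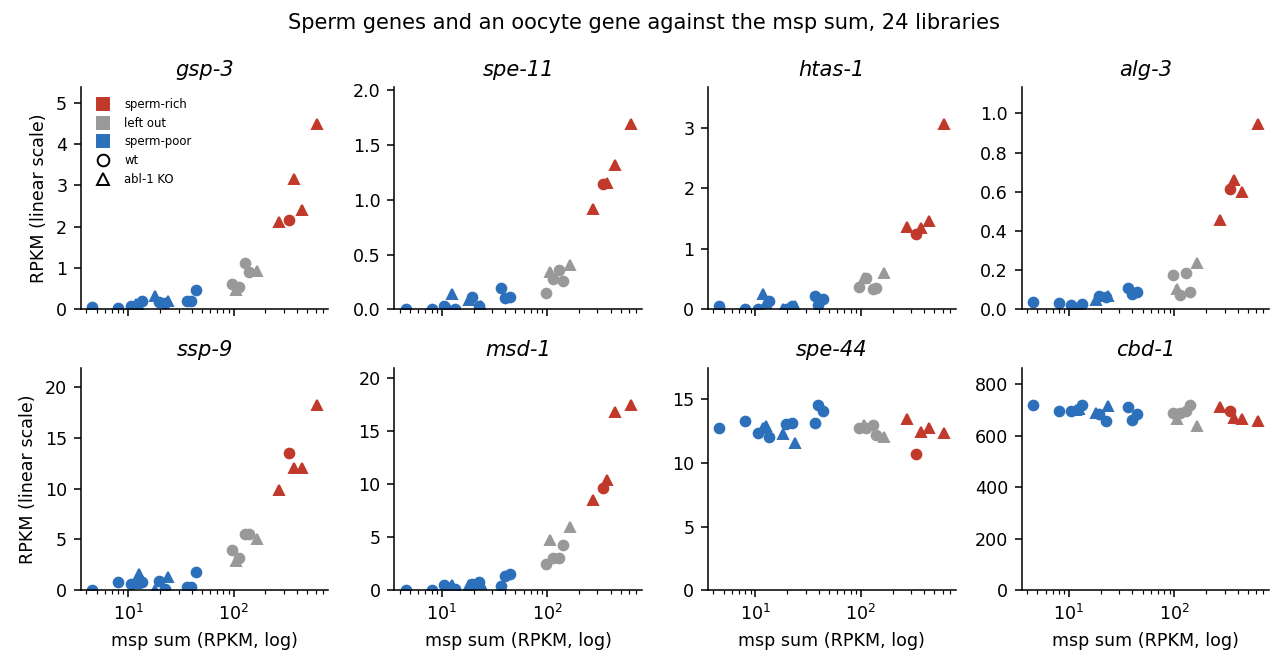
RPKM (linear scale) of 7 sperm genes and the eggshell gene *cbd-1* against the msp sum (RPKM, log scale) in the 24 libraries. Each point is 1 library, red for sperm-rich, grey for left out and blue for sperm-poor, with circles for wt and triangles for *abl-1* KO. *gsp-3*, *spe-11*, *htas-1*, *alg-3*, *ssp-9* and *msd-1* are higher in all sperm-rich libraries, whereas *spe-44* (10.7 to 14.5 RPKM over both sets) and *cbd-1* stay level.

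A few more of the 225 genes were picked after their values were seen. *cyc-2.2*, a copy of cytochrome c, was at 3.13 to 5.39 RPKM in sperm-rich and 0 to 0.545 RPKM in sperm-poor libraries (log2 difference 2.47). *acdh-8*, an acyl-CoA dehydrogenase, was at 1.03 to 2.47 RPKM against 0 to 0.253 RPKM (1.75), and passed the expression filter only through the sperm-rich libraries. Of the adenine nucleotide translocators *ant-1.3* and *ant-1.4* were higher, by 1.29 and 1.41, and *ant-1.1* was not.

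Apart from the expression filter, the 6 left-out libraries took no part in choosing the genes. For 225 of the 225 genes the mean of the left-out libraries fell between the means of both sets, with a median of 0.61 above the sperm-poor mean. Part of this is fixed by the choice of genes with a gap between the sets. For the 127 that passed the filter through the sperm-rich libraries alone, a left-out mean below the sperm-rich mean was largely built in. The share over all genes was not counted. Inside this group of 6, where the msp sum spans only 96.7 to 165 RPKM, a slope of log2(RPKM + 0.5) on log2 of the msp sum was fitted with limma over all 12743 genes. No gene passed a limma adjusted p of 0.05 in either direction (0% of those tested, smallest adjusted p 0.836). At a two-sided unadjusted p of at most 0.05 there were 651 rising (5.11%) and 84 falling genes. About 637 would be expected by chance over both directions together. Among the 225 genes 207 slopes were above 0, beside 68.3% of the slopes over all genes, and the median slope was 0.48 beside 0.07. For *msd-1* the slope was 1.03 (standard error 0.40), for *ssp-9* 0.90 (standard error 0.34), for *gsp-3* 0.76 (standard error 0.32) and for *alg-3* 0.20 (standard error 0.29), with limma adjusted p of 0.836, 0.836, 0.843 and 0.921.

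In 3 labelled groups sperm-rich and sperm-poor libraries share a genotype and a treatment, with 1 against 2 libraries in wt on quercetin, 1 against 3 in untreated *abl-1* KO and 3 against 1 in *abl-1* KO on quercetin. All 225 genes kept the sets apart in each of the 3 groups, which their choice fixes, and the median differences were 1.59, 2.19 and 1.49. Over all genes the counts that were 2-fold higher and apart were 348 (2.73%), 491 (3.85%) and 280 (2.2%), and those lower were 11 (0.0863%), 32 (0.251%) and 2 (0.0157%). These counts rest on 3 or 4 libraries each, with a single library in 1 of the arms.

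No gene of the female germ line was called in either direction, though most differences were below 0. Of the 30 oocyte and eggshell genes 8 had a difference above 0, and the median was -0.02. Their summed level was 10491 RPKM in untreated *abl-1* KO replicate 2 and 10545 RPKM in *abl-1* KO on quercetin replicate 2, the libraries with the 2 largest msp sums. The only library below these was untreated *abl-1* KO replicate 1, left out of both sets, with 10372 RPKM. Next above them came *abl-1* KO on quercetin replicate 1 with 10630 RPKM, at an msp sum of 106 RPKM. All of these low sums were thus in *abl-1* KO libraries numbered 1 or 2. The sperm-rich *abl-1* KO on quercetin replicate 5 had 11428 RPKM, above every sperm-poor library. *cbd-1*, a component of the eggshell, had 659 RPKM in untreated *abl-1* KO replicate 2, 665, 668 and 711 RPKM in *abl-1* KO on quercetin replicates 2, 3 and 5, and 698 RPKM in wt on quercetin replicate 4. In the sperm-poor set its lowest value was 658, its median 695 and its highest 719 RPKM, so the sets overlapped throughout. For the yolk receptor *rme-2* the sperm-rich libraries read 389.9 to 444 RPKM and the sperm-poor libraries 419 to 460.1 RPKM. The 2 libraries of the largest msp sums (396 and 389.9 RPKM) lay below the others of both sets. The left-out untreated *abl-1* KO replicate 1 was as low, with 391 RPKM, and the sperm-rich *abl-1* KO on quercetin replicate 5 had 444 RPKM. The RNA regulators of oocytes *oma-1* and *puf-5* differed by -0.02 and -0.05.

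In the other germline lists no member was called either, and the medians were slightly below 0. They were -0.01 for 23 genes of the decision between sperm and oocyte fate (8 above 0), -0.04 for 18 maternal RNA regulators (5 above 0), -0.08 for 13 germline granule genes (1 above 0), -0.05 for 26 meiotic chromosome genes (4 above 0) and -0.06 for 32 genes of DNA replication and mitosis (2 above 0). The median over all 12743 genes was 0.02, and the share of all genes above 0 is not given here. *fog-1*, which directs germ cells to the sperm fate, was at 11.5 to 13.3 RPKM in sperm-rich and 11.5 to 13.0 RPKM in sperm-poor libraries, and *fog-3*, which acts with it, at 0.276 to 0.589 RPKM against 0.223 to 0.58 RPKM. *tra-2* and *gld-1*, which act on the same decision, differed by less than 0.01 and by 0.02. *glp-1*, the Notch receptor that keeps germ line stem cells, *him-3* of the meiotic chromosome axis and the replication helicase subunit *mcm-7* differed by -0.06, -0.03 and -0.08. The 6 vitellogenins, made in the adult hermaphrodite intestine, had a median of -0.06 with 0 above 0. Their summed level was the lowest of all 24 libraries in untreated *abl-1* KO replicate 2 (15308 RPKM) and the next lowest in *abl-1* KO on quercetin replicate 2 (15638 RPKM). The sperm-rich *abl-1* KO on quercetin replicate 5 had 16789 RPKM, above the sperm-poor median of 16689.5 RPKM. *vit-2* averaged 3741 ± 69.2 RPKM (SD, n = 5) in the sperm-rich and 3745 ± 147 RPKM (SD, n = 13) in the sperm-poor set.

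**Figure D3:**
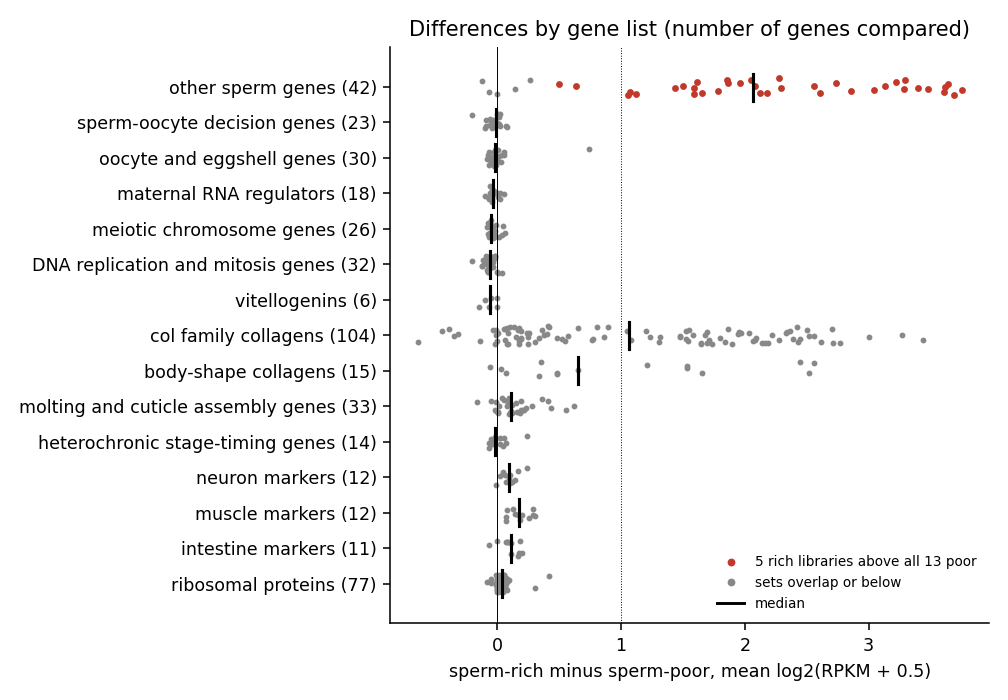
Difference between sperm-rich and sperm-poor libraries, as mean log2(RPKM + 0.5), for the genes of 15 lists, with the number of genes compared in brackets. Each dot is 1 gene, red where all 5 sperm-rich libraries lie above all 13 sperm-poor ones, the black bar is the median of the list, and the dotted line marks 2-fold. Other sperm genes have a median of 2.07, the germline and yolk lists drawn have medians from -0.06 to -0.01, and the col family collagens spread up to 3.44 without a gene whose sets are apart.

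Markers of male bodies were absent or scarce in both sets. Only 1 of the 11 male soma genes in the table reached the filter, *swm-1*, a protease inhibitor that males use to hold sperm inactive and that hermaphrodites express as well, at 18.5 to 26.4 RPKM in sperm-rich and 22.6 to 28.1 RPKM in sperm-poor libraries. The other 10 summed to 0.602 to 1.3 RPKM in sperm-rich, 0.681 to 0.918 RPKM in left-out and 0.471 to 0.938 RPKM in sperm-poor libraries. *lov-1* and *pkd-2*, the polycystins of male sensory neurons, had means of 0.000624 and 0.0252 RPKM in the sperm-rich set and 0.000701 and 0.015 RPKM in the sperm-poor set. *cwp-1*, expressed in the same neurons, read 0 in 3 of the 5 sperm-rich libraries and 0.0948 and 0.207 RPKM in the other 2, against 0 in 12 of the 13 sperm-poor libraries and 0.0954 RPKM in the remaining one. Somatic tissue markers were called in no case, though most differences were above 0. Median differences were 0.10 for 12 neuron markers (11 above 0), 0.17 for 12 muscle markers (12 above 0), 0.11 for 11 intestine markers (9 above 0) and 0.05 for 7 vulva markers (7 above 0). For 77 ribosomal proteins the median was 0.04 (66 above 0). In the left-out libraries the medians against the sperm-poor mean were 0.12 for neuron, 0.30 for muscle, 0.23 for intestine and 0.003 for vulva markers.

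A second pattern, in cuticle collagens, ran across the sperm-rich set. Of 104 *col* genes compared, 93 had a positive difference, 53 were at least 2-fold higher on average and the median was 1.06, but for none of them were the sets apart. These 53 make up most of the 92 genes that were 2-fold higher on average with overlapping sets. The adult collagens and struts (5 compared) had a median of 1.31 and the body-shape collagens (15 compared) of 0.65, again with no gene called.

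The collagens were high in only some sperm-rich libraries, and these were not the ones with the most msp RNA. Relative to the sperm-poor mean, the median *col* gene was up by 1.78 in wt on quercetin replicate 4 and by 1.71 in *abl-1* KO on quercetin replicate 3. It was up by 0.96 in untreated *abl-1* KO replicate 2, by 0.62 in *abl-1* KO on quercetin replicate 2 and by 0.06 in *abl-1* KO on quercetin replicate 5. For 54 of the 104 genes the first 2 of these libraries held the 2 highest values of all 24 libraries. The furrow collagen *sqt-1*, chosen after its values were seen, had 8.23 and 6.23 RPKM in them, 0.619, 0.53 and 0.351 RPKM in the remaining 3 and at most 0.819 RPKM in any sperm-poor library. The strut collagens *bli-1* and *bli-2* and the furrow collagen *rol-6* showed the same split, although they did not reach the filter. *bli-2* was at 5.21 and 5.14 RPKM in the pair and at 0.182 to 0.609 RPKM in the other sperm-rich libraries, against 0.0288 to 0.441 RPKM in the sperm-poor set.

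*col-19*, the classical adult collagen, behaved otherwise. It had 998 RPKM in untreated *abl-1* KO replicate 2, 977, 843 and 766 RPKM in *abl-1* KO on quercetin replicates 2, 3 and 5, and 612 RPKM in wt on quercetin replicate 4, so that the latter, among the highest for most collagens, was the lowest sperm-rich library here. The sperm-poor set lay between 511 and 878 RPKM. The median difference of the *col* genes was 1.78 in the 2 collagen-high libraries and 0.55 in the other 3. For the 225 genes it was 1.57 and 1.69, which their choice largely fixes, since each had to be high in all 5. Without those 2 libraries, an alternative added after seeing the data, 230 genes were higher and 1 was lower. The part of the collagens in the sets was not tested further.

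**Figure D4:**
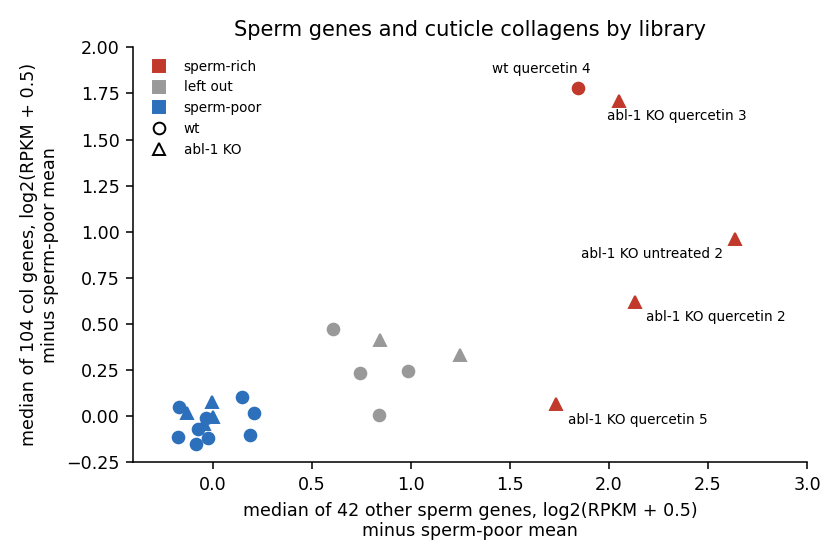
Median of the 104 col genes against the median of the 42 other sperm genes in each library, both as log2(RPKM + 0.5) minus the sperm-poor mean of each gene. Each point is 1 library, red for sperm-rich, grey for left out and blue for sperm-poor, with circles for wt and triangles for *abl-1* KO. All 5 sperm-rich libraries lie to the right, but their col medians run from 0.06 in *abl-1* KO on quercetin replicate 5 to 1.78 in wt on quercetin replicate 4.

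Genes tied to molting and stage were close to level. Of 33 molting and cuticle assembly genes none was called, 28 had a difference above 0 and the median was 0.11. *nas-37*, an astacin protease that sheds the old cuticle, was at 3.95 to 5.46 RPKM in sperm-rich and 3.28 to 4.75 RPKM in sperm-poor libraries. *mlt-10* was at 5.63 and 5.6 RPKM in the 2 collagen-high libraries and at 2.84 to 3.84 RPKM in the other 3, against 3.21 to 4.38 RPKM in the sperm-poor set. *noah-1*, of the larval cuticle matrix, differed by 0.23 and the molting regulator *nhr-23* by less than 0.01. The 14 heterochronic genes, which time the larval stages, had a median of -0.02 (6 above 0). *lin-14*, *lin-28* and *lin-29* differed by -0.07, -0.05 and 0.07, and *lin-42*, which cycles with the molts, by 0.24, with its 2 highest sperm-rich values (2.05 and 1.94 RPKM) again in the collagen-high pair.

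The position of the 225 genes in the genome was not used by the rule. A chromosome was found for 223 of them and for 12668 of all genes compared. Chromosome IV held 77 (3.65% of its compared genes) and chromosome I held 57 (2.74%). Below the share over all genes were chromosome II with 36 (1.62%), chromosome III with 28 (1.36%) and chromosome V with 25 (1.05%). On the X chromosome, which is largely silent in the male germ line, none of 1824 compared genes was higher. The 31 msp genes lie on chromosomes IV (18) and II (13), so the share on chromosome I came with no msp gene there. The 200 genes with a known exon length were short, with a median of 789 bases and 3 exons, against 1355 bases and 6 exons over all compared genes, and 17.5% of them had a single exon against 1.95%. Since genes of a cluster can be close copies, these counts are a description without a test.

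**Figure D5:**
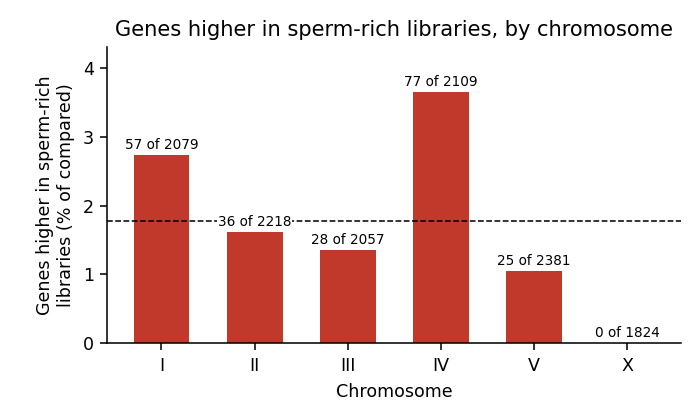
Share of compared genes that were higher in sperm-rich libraries, in percent, on each chromosome. Bars start at 0, the numbers give genes higher of genes compared, and the dashed line is the share of 1.77% over all genes. Chromosome IV (3.65%) and chromosome I (2.74%) lie above the line and the X chromosome has 0 of 1824.

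A list of genes shared by the quercetin and the *abl-1* comparisons was published with these libraries. All 171 are among the genes measured, 6 of them are msp genes and 100 were compared here. The 225 genes include 65 of them, which is 65% of the 100 compared and 28.9% of the 225. Of these 65, 33 passed the expression filter only through the sperm-rich libraries. Among the kinases of that list 3 of 11 were compared (*C08F8.6*, *C39H7.1* and *F36H12.9*) and all 3 were higher. Of its 13 phosphatases 4 were compared (*F52H3.6*, *F55H12.5*, *gsp-3* and *ZK938.1*), and these 4 were higher as well. Without the sperm-rich libraries the filter would have kept only *C39H7.1* of these kinases and only *gsp-3* and *ZK938.1* of these phosphatases, so the counts are in part fixed by the filter. The list was chosen on labelled groups that contain the sperm-rich libraries, so that its overlap with the 225 genes is no independent evidence. How far the makeup of the groups enters the list was not tested.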

How the data were processed

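Poly(A) RNA of whole nematodes was sequenced in 24 libraries. The authors demultiplexed the reads (bcl2fastq 2.20.0.422), used CLC Genomics Workbench with the WBcel235 genome for mapping, and deposited RPKM values (reads of a gene over its exon length and the mapped reads of the library) for 20191 genes. No value column was left unmapped. From the deposited RPKM values the msp sum, the sets and the mean differences of log2(RPKM + 0.5) were computed in Python 3.11.15 (pandas 2.3.3, numpy 2.4.6). Slopes were fitted with limma 3.58.1 (R 4.3.3, variance trend, Benjamini-Hochberg over all genes). In a simulation of the 6 libraries it recovered 64% of slopes of 1 and 95% of slopes of 2, with 13 false calls among unchanged genes. The simulated slopes were put into 200 genes drawn at random from all 12743, with independent noise. Recovery for sperm genes of low level was not measured. Labelled groups were compared by two-sided exact permutation tests. P-values measure the spread between libraries. Gene positions and exon lengths came from the Ensembl 115 annotation of the same assembly, with chromosomes of unmatched names from RefSeq.

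Depth is an estimate: at the best depth 51.4% to 58.1% of low values lay within 0.1 of whole reads, against 20% for random values, so no count test was run. Members, lists and limits were chosen with earlier results of these data known. Named genes are the 10 with the largest difference in each direction among genes whose sets are apart and whose higher mean is at least 1 RPKM, plus fixed members of the 24 lists; *gsp-4*, *spch-1*, *ssq-2*, *gska-3*, *ttbk-2*, *his-70*, *spe-4*, *spe-6*, *spe-46*, *cyc-2.2*, *acdh-8*, *sqt-1*, *swm-1*, the *clec* and *pud* genes, *cyp-35A3* and the genes near *npl-4.2* were named after their values were seen. Alternatives varied the pseudocount (0.1 or 1), filter, scaling, limits, strain, labelled group and single libraries. The RNA-Seq methods name NV51 where the labels give NV50, and the labels were followed. In the strain list of the paper NV51 carries a neuronal Aβ transgene besides *abl-1*(ok171). The same methods mark NV48 as nAD, the name of the Aβ strain, while the strain list gives NV48 as wild type. *abl-1* RNA cannot settle these points.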

Additional observations from a re-analysis of the deposited data

Results flagged for a closer look

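The summed levels of msp, other sperm, oocyte and eggshell and vitellogenin genes and the median collagen level were checked in each labelled group and in the sperm-rich and left-out sets for a library with a large gap to the others. Of 35 such checks 4 found a library past Dixon's limit at the 0.05 level, where chance alone marks about 1 in 20. In untreated *abl-1* KO animals replicate 2 had an msp sum of 619.9 RPKM, against 11.8 to 165 RPKM in the other 4 libraries. The same library had a summed level of other sperm genes of 356 RPKM, against 71.4 to 144 RPKM. In wt animals on lutein replicate 2 had an msp sum of 129 RPKM, against 19.4 to 36.5 RPKM in the other 3. In wt animals on quercetin replicate 1 had a summed level of oocyte and eggshell genes of 11566 RPKM, against 11135 to 11250 RPKM in the other 4.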

How the results depend on the processing

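The count of 225 higher genes depended on how low genes entered. It was 141 with a pseudocount of 1 and 57 with a mean of at least 1 RPKM, which also took the other sperm genes from 35 to 19, and 98 when the filter was applied outside the sperm-rich libraries (added after seeing the data). With wt libraries only, where 1 sperm-rich library remains, it was 350, of which 203 were among the 225. The other alternatives gave 194 to 317 (317 of them 2-fold higher on average with overlap allowed, 301 within labelled groups), and leaving out single libraries gave 206 to 281, the latter without *abl-1* KO on quercetin replicate 5. The count of lower genes was 0 except for 9 with overlap allowed, 1 with *abl-1* KO libraries only and 1 without the 2 collagen-high libraries. Median-of-ratios scaling gave 220 genes, all among the 225. Of 47 named genes followed through the alternatives, none called higher changed its sign, which their choice largely fixes. A change of sign was seen for 14 with overlapping sets, all with differences of at most 0.30 in size.

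Of 46 pairs of libraries with the same replicate number, the deviations of 40 correlated above 0.1. Over these 46 pairs the correlation ran from -0.56 to 0.63. Values for pairs with different numbers are not given here, so the count does not show that the number goes with shared deviation. With the replicate number as a block, the msp sum of wt on lutein was -0.0048 against untreated wt on the log2 scale, opposite in sign to 0.61, and without single libraries it ran from -0.0048 (without untreated wt replicate 5) to 1.15. The paired exact p of the 5 comparisons was 0.188 to 1, and the smallest that pairing allows is 0.0625 (0.125 for lutein), so no paired test could pass 0.05. In the 6 left-out libraries no alternative of the slope, the replicate block included (smallest adjusted p = 0.492), called a gene by limma, and the smallest adjusted p ran from 0.0952 to 0.998. Depth limits the lowest genes, such as *his-70* with an estimated 4.56 reads in the lowest sperm-rich library.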

Other observations

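Of 86 C-type lectins compared, 3 were among the 225 genes, *clec-73*, *clec-79* and *clec-123*, or 3.49% beside 1.77% over all genes, while the median difference of the family was 0.03. All 3 passed the expression filter only through the sperm-rich libraries. C-type lectins are carbohydrate-binding proteins, many of which are studied in intestinal immunity. *clec-79* read 0.377 to 0.736 RPKM in the 5 sperm-rich and 0 to 0.0831 RPKM in the 13 sperm-poor libraries, and *clec-73* read 0.591 to 1.08 RPKM against 0 to 0.0876 RPKM. The small heat shock and inducible chaperone list (11 compared) had a median of -0.27 with no gene called.

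The 7 genes with every sperm-rich library below every sperm-poor one differed by little, from -0.16 to -0.08. *K08E4.2* led them, with 18.7 to 19.4 RPKM against 19.6 to 23.2 RPKM, followed by *pik-1*, *ncbp-2*, *wve-1*, *rbm-22*, *spr-4* and *F58G11.3*.

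Of 9 genes that were 2-fold lower on average with overlapping sets (0.0706% of those compared), several followed the strain or the replicate number. *F59E12.15* was at 18.5 to 22.4 RPKM in all 14 wt libraries and at 0 to 0.168 RPKM in all 10 *abl-1* KO libraries, and its neighbours *F59E12.6* and *npl-4.2* divided in the same way. The 5 *pud* genes, named for proteins raised in a *daf-2* mutant, divided the sperm-rich set instead. *pud-3* was at 17.3 RPKM in untreated *abl-1* KO replicate 2 and 6.08 RPKM in *abl-1* KO on quercetin replicate 2, but at 163 to 391 RPKM in the other 3 sperm-rich libraries, against 62.7 to 442 RPKM in the sperm-poor set. Over all groups the 5 libraries numbered replicate 2 had 6.08 to 23.0 RPKM and the other 19 had 26.4 to 442 RPKM. The replicate-2 libraries are also the ones of which none was sperm-poor, and what the number stands for is not stated in the labels.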
